A study of Mus musculus with 4 samples.

Results

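The IL-6 family cytokines and their shared route to STAT3 were followed here through 10 genes, chosen by name: the ligands *Il6*, *Il11*, *Lif* and *Osm*, the receptor subunits *Il6ra*, *Il6st*, *Il11ra1* and *Osmr*, the transcription factor *Stat3* and the feedback inhibitor *Socs3*. They were measured by 11 of the 39429 probes, and they are 10 of the 22371 genes named on the arrays. Each of 9 genes had 1 probe and *Stat3* had 2.

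Colon RNA came from male mice of a B6.129 background (backcross generation 3), aged 42 weeks. The 4 groups were *Pla2g3*+/+ with vehicle, *Pla2g3*-/- with vehicle, *Pla2g3*+/+ with azoxymethane (AOM) and *Pla2g3*-/- with AOM. *Pla2g3* encodes the secreted phospholipase sPLA2-III, and the deletion was present in the whole animal. AOM, a carcinogen that induces colon tumors, was injected weekly at 10 mg/kg for 6 weeks, and these mice were killed 28 weeks after the last injection. RNA of 3 to 5 mice was pooled within each group and hybridized to 1 one-color array, all 4 on the same slide. The deposited description calls the AOM tissue colorectal cancer and the study calls it descending colon, so how much tumor each pool held is not known.

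Each group was therefore 1 array of 1 pool, with no replicate check and no p-value, and the spread between mice cannot be seen. The error of the array itself (1 SD, from the error model of the scanner software) is given beside some of the differences. It was 0.20 on the log2 scale for bright probes and more for dim ones, and it does not measure the spread between mice. A second measure came from repeated spots, since the main *Stat3* probe was printed 10 times on each array, with an SD over spots between 0.04 and 0.05 on the log2 scale. Signals are given as a percentage of the 75th percentile of the array, which was 646 and 650 intensity units with vehicle and 1309 and 1169 after AOM, *Pla2g3*+/+ first. A difference past 2-fold was counted. Where the signal on 1 of the arrays was not well above background, only a lower bound of the fold is given ("at least"), and where both were not, no fold is given. Between 64.8% and 69.4% of spots were well above background on the arrays and no spot was saturated. The probes for *Pla2g3* did not follow the genotype labels: in the pools labeled *Pla2g3*-/- the brightest was above the other pool by 1.23-fold with vehicle and by 6.01-fold with AOM. Whether that probe lies in the deleted part is not given in the sources used here, so *Pla2g3*+/+ and *Pla2g3*-/- mice below mean the pools labeled so, and each direction between genotypes rests on those labels.

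Cytokines of the IL-6 family act through receptor complexes that share the subunit gp130, encoded by *Il6st*, together with a receptor for the particular ligand. Ligand binding activates JAK kinases, which phosphorylate STAT3, and STAT3 then enters the nucleus and turns on genes that include *Socs3*, whose product shuts the receptor off again. In the intestine the pathway is known for driving repair, survival and proliferation of the epithelium.

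A RefSeq promoter was at hand for 9 of the 10 genes (11 entries, assembly GRCm38.p6). The 250 bases before each start were searched on both strands for the STAT motif TTCNNNGAA, the AP-1 motif TGANTCA and the consensus NF-kB motif, which do not overlap in the windows shown. Matches stood in the promoters of 4 genes, *Il6*, *Il11*, *Lif* and *Socs3*, whose signal differed by more than 2-fold with AOM in *Pla2g3*+/+ mice. *Osmr*, *Stat3* and *Il11ra1*, whose promoters held no match, also differed by more than 2-fold in that comparison. The matches are shown so that these control regions can be set beside the values. The motif is in capitals, and each sequence is written 5′ to 3′ on the strand of its gene, plus for *Il6* and *Lif* and minus for *Il11* and *Socs3*.
Il6, AP-1 motif, chr5:30012864-30012891: cTGAGTCActtttaaagaaaaaaaagaa
Il6, NF-kB motif, chr5:30013050-30013099: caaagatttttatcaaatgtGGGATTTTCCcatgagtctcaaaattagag
Il11, AP-1 motif, chr7:4778213-4778259: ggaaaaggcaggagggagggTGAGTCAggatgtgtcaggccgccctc
Lif, AP-1 motif, chr11:4257320-4257366: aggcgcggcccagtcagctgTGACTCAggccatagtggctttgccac
Lif, NF-kB motif, chr11:4257370-4257419: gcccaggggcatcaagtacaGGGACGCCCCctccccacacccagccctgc
Socs3, STAT motif, chr11:117969492-117969540: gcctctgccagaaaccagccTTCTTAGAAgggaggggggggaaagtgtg
The motifs began 249 and 44 bases before the start of *Il6*, 98 bases before that of *Il11*, 228 and 178 bases before that of *Lif* and 154 bases before that of *Socs3*. Of 32851 promoters in the same RefSeq table, 7.02% held the STAT motif, 6.75% the AP-1 motif and 7.25% the NF-kB motif in a window of the same length. A match describes letters and does not show that a factor is bound.

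Among genes measured on both arrays of a comparison, the ligand *Il11* had the largest difference of the 10, and *Il6*, known only by bounds, cannot be ranked against it. All 4 ligands had their highest signal on the array of *Pla2g3*+/+ mice given AOM, as the plot of signals by array shows.

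**Figure D1:**
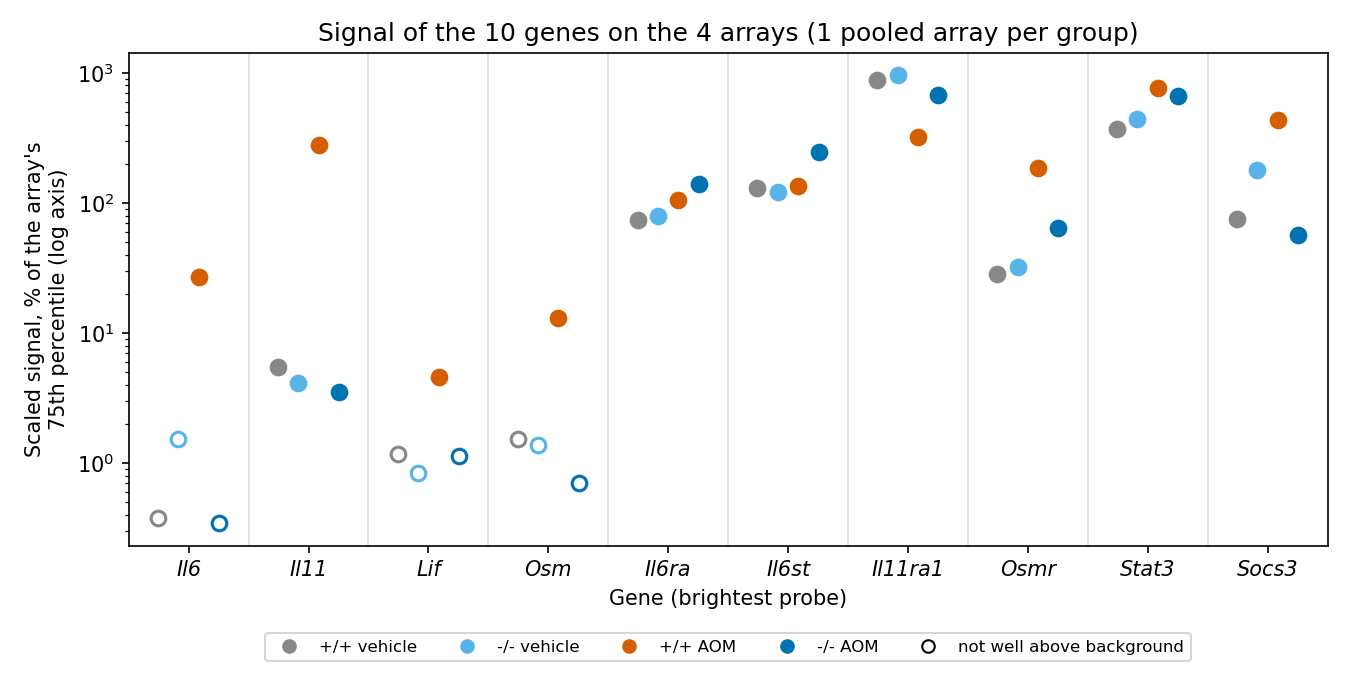
Scaled signal of each of the 10 genes (brightest probe, percentage of the 75th percentile of its array, log axis) on the 4 arrays, with open circles for signals not well above background. *Il11* stands at 281% on the array of *Pla2g3*+/+ mice given AOM and between 3.53% and 5.49% on the others, and levels are to be compared within a gene only.

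*Il11*, which encodes a cytokine of stromal and epithelial origin that signals through IL11RA and gp130, was the only ligand well above background on all 4 arrays. Its signal was 5.49% of the 75th percentile in *Pla2g3*+/+ mice and 4.11% in *Pla2g3*-/- mice with vehicle. After AOM it was 281% in *Pla2g3*+/+ mice and 3.53% in *Pla2g3*-/- mice. The array of *Pla2g3*+/+ mice given AOM thus stood apart from the other 3. AOM against vehicle, *Il11* was 51.1-fold higher in *Pla2g3*+/+ mice (log2 difference 5.68, array error 0.25), a rise reached by 0.382% of all genes with a value. In *Pla2g3*-/- mice the same log2 difference was -0.22 (array error 0.37), smaller than the array error. After AOM, *Il11* was 79.5-fold lower in *Pla2g3*-/- than in *Pla2g3*+/+ mice (log2 difference -6.31, array error 0.28), a fall reached by 0.256% of all genes. With vehicle the log2 difference between genotypes was -0.42 (array error 0.35). The *Il11* probe lies on chromosome 7 (mm9, 4724847 to 4724906).

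*Il6* encodes the founding cytokine of the family, made by macrophages, T cells and stromal cells. Its probe (chromosome 5, mm9, 30346367 to 30346426) gave 27.0% of the 75th percentile after AOM in *Pla2g3*+/+ mice and was not well above background on the other 3 arrays, at 0.380% and 1.54% with vehicle and 0.344% after AOM in *Pla2g3*-/- mice. The bounds from these values were at least 16.3-fold higher after AOM in *Pla2g3*+/+ mice, and at least 18.5-fold lower in *Pla2g3*-/- mice after AOM.

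*Osm* encodes oncostatin M, a product of activated myeloid cells. Its signal was 13.0% of the 75th percentile after AOM in *Pla2g3*+/+ mice, against 1.53% and 1.39% with vehicle and 0.706% after AOM in *Pla2g3*-/- mice, all 3 not well above background (chromosome 11, mm9, 4140146 to 4140205). It was at least 7.84-fold higher after AOM in *Pla2g3*+/+ mice and at least 8.89-fold lower in *Pla2g3*-/- mice after AOM.

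*Lif*, which encodes leukemia inhibitory factor, a cytokine that signals through LIFR and gp130, gave 60.5 intensity units on the array where it was measured. This was 4.62% of the 75th percentile after AOM in *Pla2g3*+/+ mice, against 1.17% and 0.836% with vehicle and 1.14% after AOM in *Pla2g3*-/- mice, again not well above background (chromosome 11, mm9, 4172032 to 4172091). *Lif* was at least 2.78-fold higher after AOM in *Pla2g3*+/+ mice and at least 3.16-fold lower in *Pla2g3*-/- mice after AOM. With normexp background correction and quantile normalization the log2 differences of *Lif* were 0.47 and -0.46, and *Osm* differed between genotypes after AOM by -0.96, all within 2-fold.

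*Il6*, *Osm* and *Lif* have a value only through the array of *Pla2g3*+/+ mice given AOM, so their presence among the genes past 2-fold follows from the filter. In *Pla2g3*-/- mice, and between genotypes with vehicle, none of these 3 can be compared, and a change at this low signal was not detectable. In such pooled tissue, fewer cells that make a cytokine and less RNA per cell cannot be told apart.

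The receptor subunits behaved unlike each other. *Osmr*, like the ligands, had its highest signal on the array of *Pla2g3*+/+ mice given AOM, whereas *Il11ra1* had its lowest signal where its ligand had the highest.

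*Osmr*, the receptor chain for oncostatin M, gave 28.5% of the 75th percentile in *Pla2g3*+/+ and 32.4% in *Pla2g3*-/- mice with vehicle, and 184% and 64.4% after AOM (chromosome 15, mm9, 6763686 to 6763745). Both AOM arrays were above both vehicle arrays, and the vehicle arrays differed by less than the array error (log2 difference 0.19, array error 0.21). *Osmr* was 6.46-fold higher after AOM in *Pla2g3*+/+ mice (log2 difference 2.69, array error 0.21). In *Pla2g3*-/- mice it was 1.99-fold higher (log2 difference 0.99), just under the threshold of 2-fold, and the log2 difference was past it at 1.84 without scaling and 1.31 with scaling by 6 housekeeping genes. Between genotypes after AOM it was 2.86-fold lower in *Pla2g3*-/- mice (log2 difference -1.52).

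*Il11ra1*, the receptor for IL-11, had signals of 884% and 955% of the 75th percentile with vehicle in *Pla2g3*+/+ and *Pla2g3*-/- mice, 324% in *Pla2g3*+/+ mice after AOM and 674% in *Pla2g3*-/- mice after AOM (chromosome 4, mm9, 41716285 to 41716344). The vehicle arrays were within array error of each other, and the *Pla2g3*+/+ AOM array was the lowest. *Il11ra1* was 2.73-fold lower after AOM in *Pla2g3*+/+ mice (log2 difference -1.45, array error 0.20) and 2.08-fold higher in *Pla2g3*-/- than in *Pla2g3*+/+ mice after AOM (log2 difference 1.06). Both differences came within 2-fold when the arrays were not scaled (-0.43 and 0.90) or were scaled by the housekeeping genes (-0.92 and 0.88), with the same direction. In *Pla2g3*-/- mice the log2 difference with AOM was -0.50, and it was 0.35 without scaling. The closely related copy *Il11ra2* had no probe named for it on the arrays, and how far the *Il11ra1* probe separates the copies was not tested.

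*Il6st*, the gp130 subunit common to the family, gave 131% and 122% of the 75th percentile with vehicle, 136% after AOM in *Pla2g3*+/+ mice and 245% after AOM in *Pla2g3*-/- mice (chromosome 13, mm9, 113296586 to 113296645). The first 3 were within array error of each other and the *Pla2g3*-/- AOM array was the highest. The log2 difference with AOM was 0.05 in *Pla2g3*+/+ mice and 1.003 in *Pla2g3*-/- mice, a fold of 2.005, just past the threshold. Both were past 2-fold without scaling, at 1.07 and 1.85.

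*Il6ra*, the receptor for IL-6, stayed within 2-fold in every comparison, with 74.3% and 79.7% of the 75th percentile with vehicle and 104% and 141% after AOM, *Pla2g3*+/+ first (chromosome 3, mm9, 89674054 to 89674113). Its log2 differences with AOM were 0.49 in *Pla2g3*+/+ and 0.82 in *Pla2g3*-/- mice, and between genotypes 0.10 with vehicle and 0.43 after AOM. Without scaling the first 2 of these were 1.51 and 1.67, and with housekeeping genes 1.02 and 1.14.

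**Figure D2:**
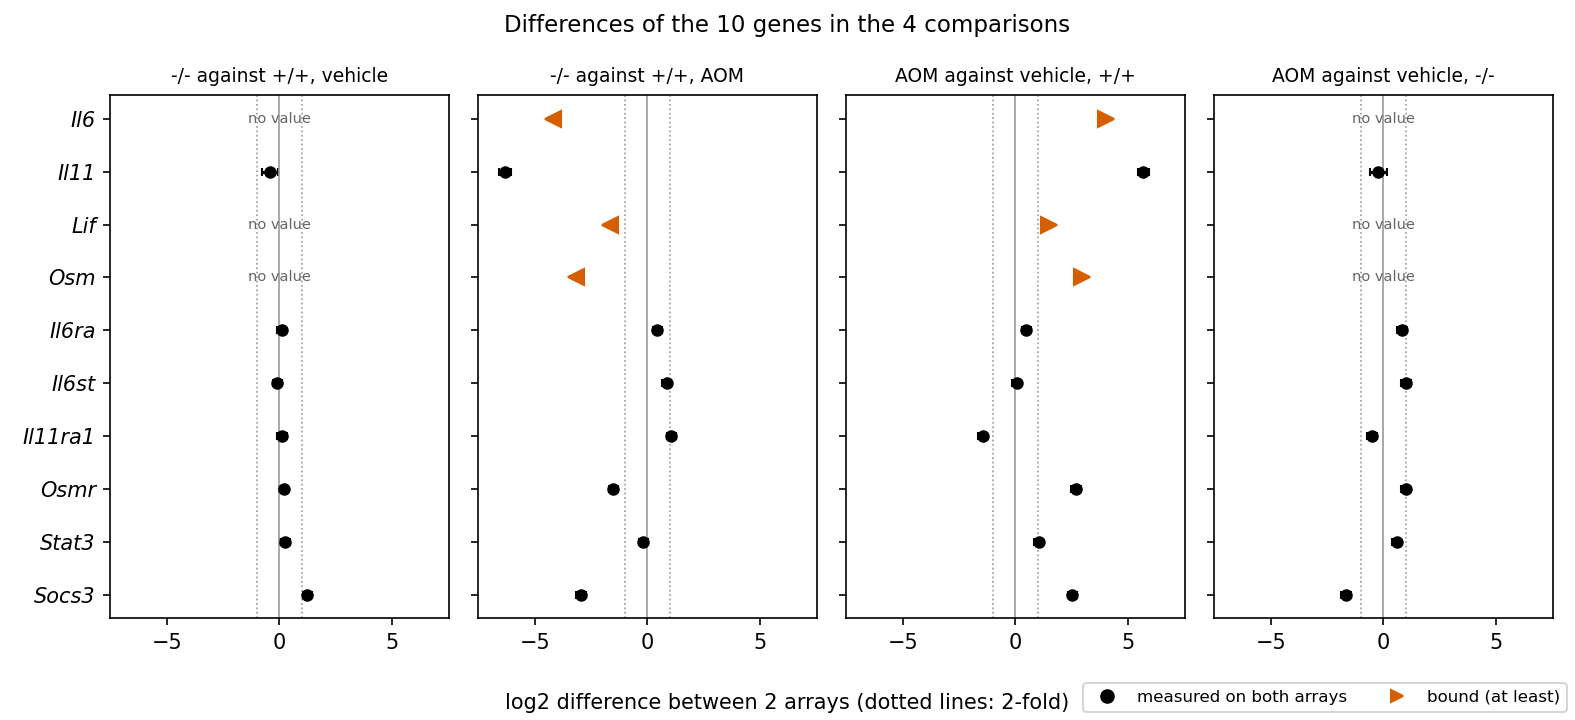
Log2 difference of each gene (brightest probe) in the 4 comparisons between 2 arrays, with the array error (1 SD) as bars, arrowheads for lower bounds and dotted lines at 2-fold. *Il11* lies at -6.31 between genotypes after AOM and at 5.68 for AOM in *Pla2g3*+/+ mice, whereas *Il6ra* lies within 2-fold in all 4 panels.

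*Stat3* encodes the transcription factor on which these receptors converge, and its activity depends on phosphorylation, which RNA does not show. The probe with 10 spots (chromosome 11, mm9, 100749598 to 100749657) gave 373% and 441% of the 75th percentile with vehicle and 759% and 664% after AOM, *Pla2g3*+/+ first. Both AOM arrays were above both vehicle arrays, and the spots of an AOM array did not overlap those of a vehicle array after scaling. The signal with AOM was 2.04-fold higher in *Pla2g3*+/+ mice (log2 difference 1.03, array error 0.20) and 1.504-fold higher in *Pla2g3*-/- mice (log2 difference 0.59).

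The second *Stat3* probe (chromosome 11, mm9, 100759946 to 100760005) had 1 spot and a dimmer signal, 12.9% and 15.2% of the 75th percentile with vehicle and 28.2% and 33.1% after AOM. It rose in both genotypes by 2.18-fold (log2 difference 1.12 in each). Between genotypes after AOM the probes differed in sign, at -0.19 for the probe with 10 spots and 0.23 for the other, each close to its array error of 0.20. *Stat3* in *Pla2g3*-/- mice was thus past 2-fold by the dimmer probe and not by the brighter, as seen in the plot of both probes.

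**Figure D3:**
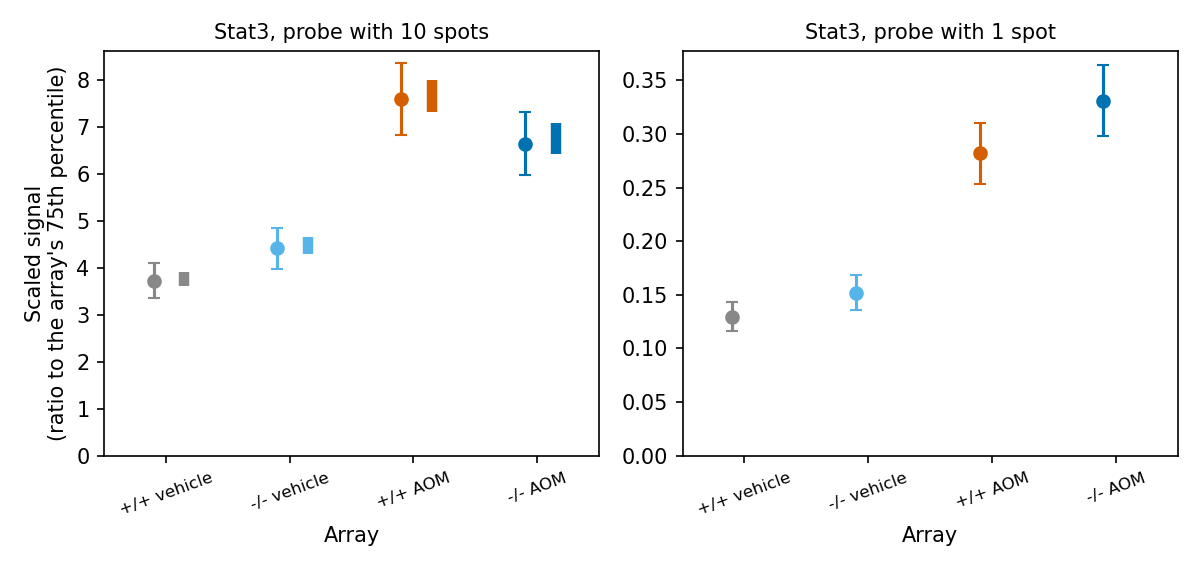
Scaled signal of both *Stat3* probes on the 4 arrays (ratio to the 75th percentile of the array, axes from 0), with the array error as thin bars and the range over the 10 spots as thick bars. Both probes are higher on the AOM arrays, and which AOM array is the higher depends on the probe.

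*Socs3*, a target of STAT3 whose product inhibits gp130 and JAK kinases, gave 75.7% of the 75th percentile in *Pla2g3*+/+ mice and 179% in *Pla2g3*-/- mice with vehicle (chromosome 11, mm9, 117827480 to 117827539). After AOM it gave 434% in *Pla2g3*+/+ mice and 56.4% in *Pla2g3*-/- mice. The order of the genotypes was thus opposite with vehicle and after AOM. *Socs3* was 2.36-fold higher in *Pla2g3*-/- mice with vehicle (log2 difference 1.24, array error 0.20) and 7.69-fold lower after AOM (log2 difference -2.94). With AOM it was 5.74-fold higher in *Pla2g3*+/+ mice (log2 difference 2.52) and 3.16-fold lower in *Pla2g3*-/- mice (log2 difference -1.66). Without scaling the last value was -0.81, in the same direction and within 2-fold. *Socs3* and *Il11* therefore differed on the array of *Pla2g3*-/- mice with vehicle, where *Socs3* was above the *Pla2g3*+/+ array and *Il11* was not.

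In counts, 1 of 7 genes with a value (*Socs3*) was over 2-fold higher between genotypes with vehicle and none was lower, where 3.25% of all genes were past 2-fold (1.93% higher, 1.32% lower). After AOM, 6 of 10 were lower and 1 was higher in *Pla2g3*-/- mice, beside 28.0% of all genes past 2-fold (12.9% lower, 15.1% higher). With AOM in *Pla2g3*+/+ mice 7 of 10 were higher and 1 was lower, beside 37.5% of all genes (15.1% higher, 22.4% lower). In *Pla2g3*-/- mice, 1 of 7 was higher (*Il6st*) and 1 lower (*Socs3*), beside 24.8% of all genes (9.64% higher, 15.1% lower).

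These counts hold the 3 ligands that passed the filter only through 1 array. *Il11*, the 4 receptor subunits, *Stat3* and *Socs3*, 7 genes in all, were well above background on all 4 arrays, as were 14788 genes of the whole array. Among the 7, the counts between genotypes after AOM were 3 lower, 1 higher and 3 within 2-fold, beside 10.7% lower and 13.4% higher of the 14788. With AOM in *Pla2g3*+/+ mice they were 4 higher, 1 lower and 2 within 2-fold, beside 13.4% higher and 20.5% lower. With AOM in *Pla2g3*-/- mice they were 1 higher, 1 lower and 5 within 2-fold, beside 8.59% higher and 13.2% lower, and between genotypes with vehicle 1 higher and 0 lower, beside 0.771% higher and 0.527% lower. Their median log2 difference with AOM was 1.03 in *Pla2g3*+/+ and 0.59 in *Pla2g3*-/- mice, beside -0.17 and -0.09 for the 14788. The comparison between genotypes after AOM and that of AOM in *Pla2g3*+/+ mice share the *Pla2g3*+/+ AOM array, so a high signal there enters both.

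Of all the genes well above background on the 4 arrays, those whose pattern was nearest to *Il11*, the gene with the widest range (6.31 on the log2 scale), were *Il1b*, *Asprv1* and *R3hdml*. After centering, their scaled log2 signals differed from those of *Il11* by a root mean square of 0.13, 0.14 and 0.29 over 4 arrays, among 14781 genes compared. *Il1b*, which encodes the inflammatory cytokine IL-1 beta, gave a ratio to the 75th percentile of 0.102 and 0.0967 with vehicle and 5.67 and 0.0790 after AOM, *Pla2g3*+/+ first. Since *Il11* was alike on 3 of the arrays, this likeness rests mainly on the array of *Pla2g3*+/+ mice given AOM.

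The rest of the pathway was taken from 7 lists of 55 genes, of which 54 were on the arrays. Between genotypes with vehicle, 4 of 50 with a value were higher and none was lower, beside 1.93% higher and 1.32% lower of all genes. After AOM, 21 of 52 were lower and 3 higher in *Pla2g3*-/- mice, beside 12.9% lower and 15.1% higher of all genes, with a median log2 difference of -0.53 beside 0.03. With AOM, 19 of 52 were higher and 3 lower in *Pla2g3*+/+ mice, beside 15.1% higher and 22.4% lower of all genes (median 0.49 beside -0.17). The same counts in *Pla2g3*-/- mice were 4 of 50 higher and 10 lower, beside 9.64% higher and 15.1% lower (median 0.06 beside -0.08). Many of these genes came from 1 list, the 20 known STAT3 targets. That list held all 4 higher with vehicle and 11 of the 21 lower between genotypes after AOM. It also held 10 of the 19 higher with AOM in *Pla2g3*+/+ mice and 6 of the 10 lower in *Pla2g3*-/- mice.

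Some of these genes, such as *Il31* and *Il27ra*, passed the filter only through the array where they were high and had to differ. Among the 46 pathway genes well above background on all 4 arrays, 17 were lower and 2 higher between genotypes after AOM (37.0% and 4.35%), beside 10.7% and 13.4% of the 14788 genes so measured. After AOM against vehicle in *Pla2g3*+/+ mice 15 were higher and 2 lower (32.6% and 4.35%), beside 13.4% and 20.5%, and in *Pla2g3*-/- mice 4 were higher and 9 lower (8.70% and 19.6%), beside 8.59% and 13.2%. The 20 known STAT3 targets, all among the 46, held 11 of the 17, 10 of the 15 and 6 of the 9.

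Of 8 further ligands, 4 were lower in *Pla2g3*-/- mice after AOM and none was higher, beside 12.9% lower and 15.1% higher of all genes. Of the 5 well above background on all 4 arrays 2 were lower, beside 10.7% of all genes so measured. *Il31*, a T cell cytokine, was measured only on the array of *Pla2g3*+/+ mice given AOM and was at least 4.78-fold lower in *Pla2g3*-/- mice. *Clcf1*, a cytokine that acts on the CNTF receptor, was 3.24-fold lower, and *Ebi3*, a subunit of IL-27, 3.21-fold lower. *Clcf1* was 3.31-fold higher with AOM in *Pla2g3*+/+ mice, and *Ebi3* was 2.14-fold lower with AOM in *Pla2g3*-/- mice. *Ctf2*, a cardiotrophin, was at least 5.17-fold lower with AOM in *Pla2g3*+/+ mice and 2.78-fold lower in *Pla2g3*-/- mice.

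Among the other receptors, *Lifr*, the receptor chain for LIF, was 3.07-fold higher with AOM in *Pla2g3*+/+ and 3.34-fold higher in *Pla2g3*-/- mice, and its log2 difference between genotypes after AOM was 0.10. *Lifr* thus differed from *Osmr*, which was past 2-fold in *Pla2g3*+/+ mice and on either side of it in *Pla2g3*-/- mice depending on the scaling, a difference that was not tested. *Il27ra*, the receptor for IL-27, was at least 3.63-fold higher with AOM in *Pla2g3*+/+ mice. *Cntfr* and *Il31ra* were not well above background on any array.

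Between the receptor and the nucleus, most genes stayed within 2-fold. *Jak1*, *Jak2* and *Tyk2*, the kinases bound to gp130, had log2 differences between -0.65 and 0.78 in the 4 comparisons. *Jak3*, a kinase of lymphocyte receptors outside this family, was 2.12-fold higher with AOM in *Pla2g3*+/+ mice and 3.12-fold lower in *Pla2g3*-/- mice after AOM. Of 6 other STAT genes, 2 were higher with AOM in *Pla2g3*+/+ mice, beside 15.1% of all genes. Among the 2 was *Stat4*, a factor of T cells, at 2.03-fold, and *Stat4* was 5.16-fold lower in *Pla2g3*-/- mice after AOM. *Adam10*, a protease that can shed the IL-6 receptor, was 2.08-fold higher with AOM in *Pla2g3*+/+ mice, and *Adam17* stayed within 2-fold.

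Negative regulators other than *Socs3* were found on both sides. *Socs1*, a JAK inhibitor, was 2.45-fold lower in *Pla2g3*-/- mice after AOM and 2.68-fold lower with AOM in these mice. *Socs2*, an inhibitor of growth hormone signaling, went the other way, 3.04-fold higher in *Pla2g3*-/- mice after AOM and 2.505-fold lower with AOM in *Pla2g3*+/+ mice. *Ptprt*, a phosphatase that acts on STAT3, was 6.81-fold higher with AOM in *Pla2g3*+/+ mice and at least 18.2-fold lower in *Pla2g3*-/- mice after AOM. Of the 10 regulators, 2 were higher and 3 lower between genotypes after AOM, with a median log2 difference of -0.02, beside 15.1% higher and 12.9% lower of all genes.

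Of 20 known STAT3 targets, 11 were lower and 1 was higher in *Pla2g3*-/- mice after AOM, with a median log2 difference of -1.30. All 20 were well above background on all 4 arrays, where 10.7% of all genes so measured were lower and 13.4% higher. The largest were *Saa3*, an acute phase protein, at 180-fold lower, *Reg3g*, an antimicrobial lectin, at 29.6-fold lower, *Lcn2*, an iron-sequestering protein of inflamed epithelium, at 15.7-fold lower, and *Hp*, which encodes haptoglobin, at 12.4-fold lower. The 1 higher was *Fos*, at 2.95-fold, named after its value was seen. With *Fos*, 6 of the 20 had a log2 difference above 0 and 14 had one below 0. With AOM in *Pla2g3*+/+ mice, 10 were higher and 1 lower (median 0.92), beside 13.4% and 20.5% of all genes so measured, with *Lcn2* 28.6-fold and *Timp1*, an inhibitor of metalloproteinases, 18.1-fold higher, *Hp* 9.56-fold higher and *Reg3b*, the relative of *Reg3g*, 10.4-fold lower.

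In *Pla2g3*-/- mice AOM went with 3 higher and 6 lower targets (median -0.05), beside 8.59% and 13.2% of all genes so measured, from *Hif1a*, the hypoxia response factor, at 5.01-fold higher to *Reg3b* at 810-fold lower and *Reg3g* at 729-fold lower. With vehicle, 4 of the 20 targets were higher in *Pla2g3*-/- mice, beside 0.771% of all genes so measured: *Reg3g* at 13.7-fold, *Reg3b* at 9.75-fold, *Hp* at 2.24-fold and *Timp1* at 2.10-fold. *Socs3*, at 2.36-fold, lay among them. On that array of *Pla2g3*-/- mice with vehicle, all 8 exocrine pancreas markers were also over 2-fold higher, beside 1.93% of all genes. The part of these markers in these rises, and in the falls of *Reg3b* and *Reg3g* with AOM, was not tested.

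**Figure D4:**
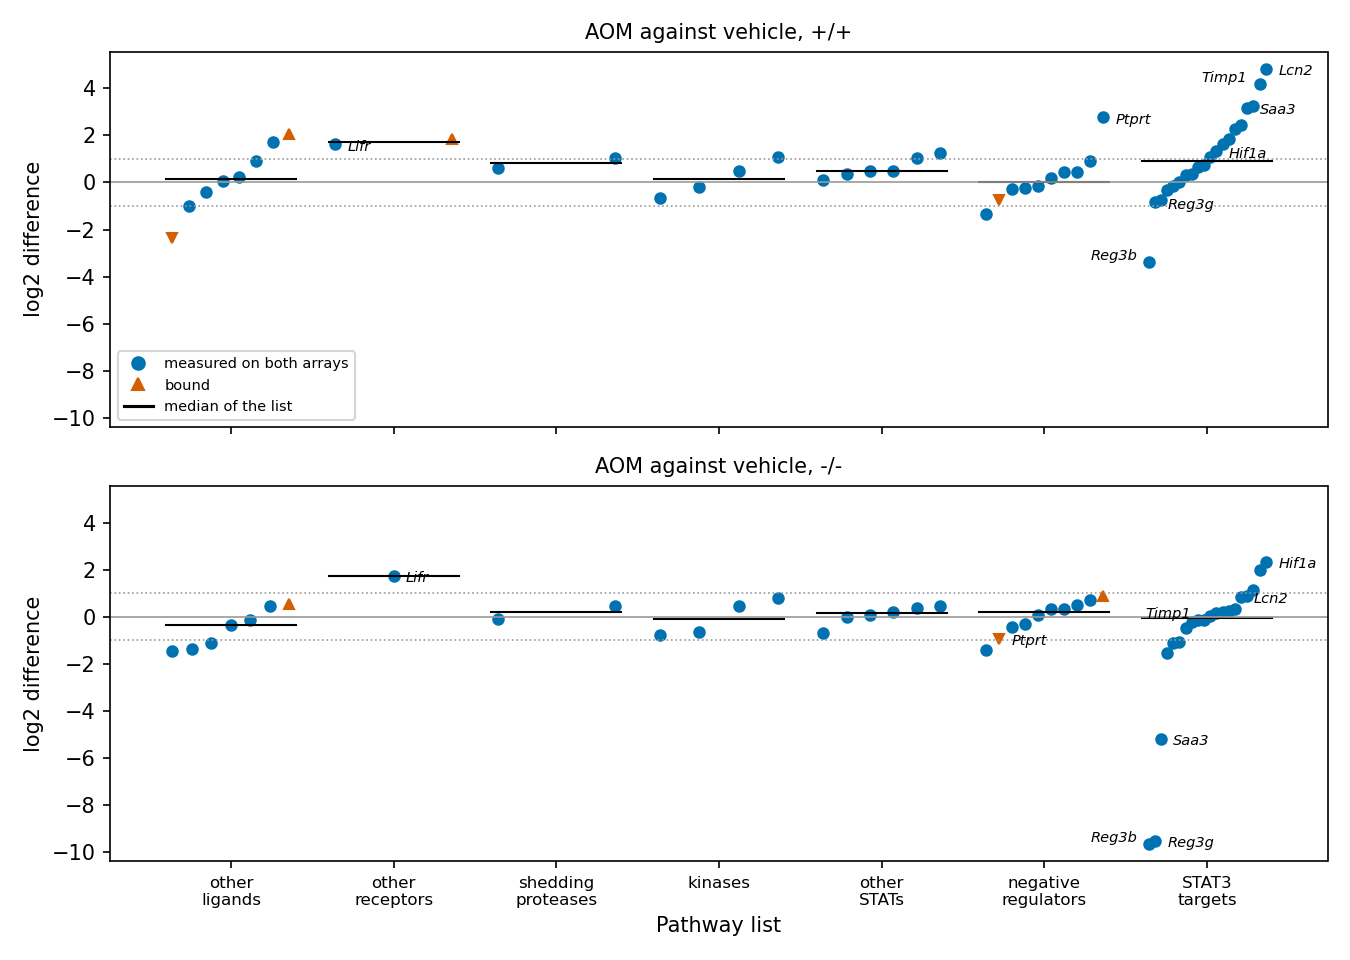
Log2 difference with AOM of each gene of the 7 pathway lists in *Pla2g3*+/+ (upper) and *Pla2g3*-/- mice (lower), with triangles for bounds, black bars for the list medians and dotted lines at 2-fold. Of 20 known STAT3 targets 10 are over 2-fold higher in the upper panel and 3 in the lower, where *Reg3b*, *Reg3g* and *Saa3* fall farthest.

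Markers of other cells moved with these values. The 6 Wnt target genes that mark colon tumors summed to 34.7 times the 75th percentile on the array of *Pla2g3*+/+ mice given AOM and to between 5.23 and 5.47 on the others, and all 6 were over 2-fold higher with AOM in *Pla2g3*+/+ mice. The 6 smooth muscle markers summed to 28.9 on that array and to between 467 and 518 on the others, and all 6 were over 2-fold lower. Mast cell markers summed to 27.0 there and to between 1.39 and 1.79 elsewhere. Of these 6 markers, 5 were over 2-fold higher with AOM in *Pla2g3*+/+ mice, beside 15.1% of all genes. *Kit* went the other way, at 3.16-fold lower, and made up most of the mast cell sum on each of the other arrays. With AOM in *Pla2g3*-/- mice, *Cpa3*, *Fcer1a* and *Mcpt4* were over 2-fold higher, and *Mcpt1* and *Mcpt2* were over 2-fold lower.

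The array with the highest ligands was thus also the array with the highest sums of Wnt target and mast cell markers and the lowest of muscle markers. Of 8 fibroblast markers 5 were higher with AOM in *Pla2g3*+/+ mice, beside 15.1% of all genes (summed signal 118, against 39.5 with vehicle and, in *Pla2g3*-/- mice, 44.5 and 86.1). Of the 8, *Lum* went the other way within 2-fold (log2 difference -0.48). With AOM in *Pla2g3*-/- mice 4 of the 8 were higher, beside 9.64% of all genes. Of 6 neutrophil markers 4 were higher with AOM in *Pla2g3*+/+ mice (93.0, against 54.8, 53.8 and 61.7). The neutrophil sum was mostly *Csf3r* (49.5 of 54.8 with vehicle in *Pla2g3*+/+ mice), while *S100a8* was 196-fold and *S100a9* 159.8-fold higher with AOM in these mice. *Ly6g* and *Csf3r* went the other way within 2-fold, with log2 differences of -0.96 and -0.16. Between genotypes after AOM, *Ly6g* was 2.86-fold higher in *Pla2g3*-/- mice. Of 6 macrophage markers 4 were higher and 1 lower with AOM in *Pla2g3*+/+ mice, beside 15.1% higher and 22.4% lower of all genes. Their sum on that AOM array was 25.9, against 28.6 with vehicle and, in *Pla2g3*-/- mice, 26.2 and 21.8. *Itgam* made up 18.7 of the 28.6 and was the lower gene, and *Cd68* was 5.44-fold higher. Epithelial markers summed to 357 there and to between 537 and 570 elsewhere. The keratins *Krt8*, *Krt18*, *Krt19* and *Krt20* gave 126, 101, 70.0 and 22.5 of the 357. Of the 8 epithelial markers, 2 (*Krt20* and *Cdx2*) were over 2-fold lower with AOM in *Pla2g3*+/+ mice, beside 22.4% of all genes. The other 6 were within 2-fold, and *Cdh1* was 1.56-fold higher. The part of these cell types in the ligand, *Osmr*, *Il11ra1* and *Socs3* values was not tested.

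On the array of *Pla2g3*-/- mice with vehicle, *Socs3* was 2.36-fold above the *Pla2g3*+/+ array. There all 8 markers of the exocrine pancreas were over 2-fold higher, beside 1.93% of all genes. Their summed signal was 43.4 against 0.382 (median log2 difference 4.98), and the adipocyte markers summed to 34.3 against 15.8. Of the adipocyte markers, 1 of 4 with a value was past 2-fold (*Cfd*, 2.64-fold higher), and *Cfd* made up 19.2 of the 34.3. The part of the pancreas and adipocyte markers in the *Socs3*, *Reg3b* and *Reg3g* values was not tested. After AOM in *Pla2g3*-/- mice, where *Socs3* was lowest, B and plasma cell markers summed to 8.66 against between 43.6 and 72.7 elsewhere. *Jchain* made up 4.81 of the 8.66 and 66.5 of the 72.7. Of the 6 markers, 5 were over 2-fold lower with AOM in *Pla2g3*-/- mice, beside 15.1% of all genes. T cell markers summed to 1.58 against between 2.39 and 4.09. The part of these cells in the *Socs3* value was likewise not tested.

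**Figure D5:**
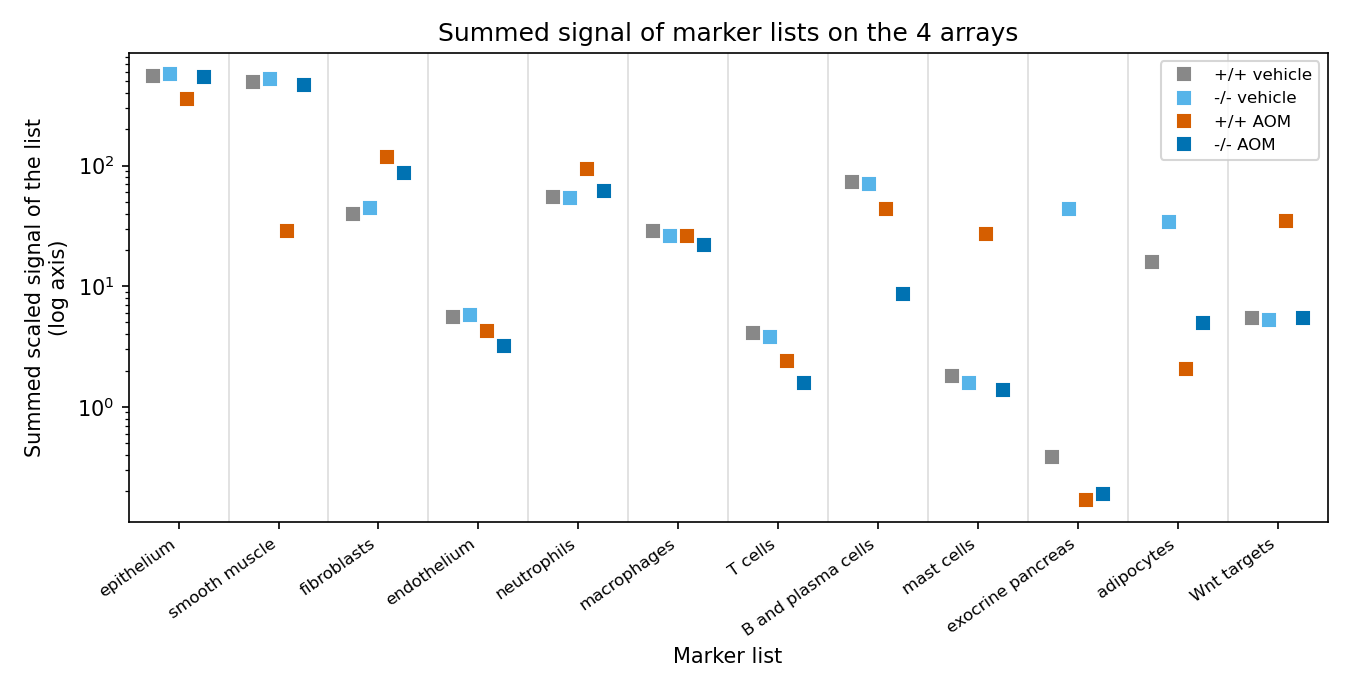
Summed scaled signal of 12 marker lists (sum of the ratios to the 75th percentile of the array, log axis) on the 4 arrays. Smooth muscle markers lie at 28.9 and Wnt targets at 34.7 on the array of *Pla2g3*+/+ mice given AOM, and exocrine pancreas markers lie at 43.4 on that of *Pla2g3*-/- mice with vehicle.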

How the data were processed

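RNA pools from 4 groups, as labeled, were hybridized to Agilent Whole Mouse Genome arrays. Spot intensity values, deposited as Agilent Feature Extraction 11.5.1.1 wrote them, had been background-subtracted and detrended, with no scaling from array to array. The authors also deposited a table of ratio values, which equaled the intensity divided by the 75th percentile of the array. Deposited flags of 0 or 1, in no unit of amount, gave outliers and signals well above background.

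Outlier and control spots were left out, log2 intensities of repeated spots were averaged, and the 75th percentile was subtracted. Probes were named through RefSeq (31372 of 39429), with the brightest probe standing for its gene, and a probe was above background where at least 0.5 of its spots were. Probe coordinates are on mm9 and promoters on GRCm38.p6. A bound set the bright signal against the higher of the lowest signal well above background on the other array and the dim probe's own. The number of arrays limits the precision.

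The 10 genes and all lists were chosen with earlier results of these data known. Named genes were these 10, and up to 4 of each pathway list past 2-fold in a comparison, with the largest change. *Pla2g3*, some marker genes and the genes nearest to *Il11* in pattern were named too. From the pathway lists *Jak1*, *Jak2*, *Tyk2*, *Adam17*, *Cntfr* and *Il31ra* were also named, though within 2-fold or without a value. Some genes of these lists are not reported here. Of processing alternatives, 12 were planned and 1, scaling by 6 housekeeping genes, was added after seeing the data. Python 3.11.15, pandas 2.3.3, numpy 2.4.6, matplotlib 3.10.9, R 4.3.3 and limma 3.58.1 (normalization only) were used.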

Additional observations from a re-analysis of the deposited data

Results flagged for a closer look

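*Socs3* differed between genotypes, as labeled, in opposite directions under vehicle and AOM, with log2 differences of 1.24 and -2.94, and with AOM in opposite directions in the 2 genotypes, with 2.52 in *Pla2g3*+/+ and -1.66 in *Pla2g3*-/- mice. It stands out because the pools moved in opposite directions. With 1 pool per group the difference between these differences was not tested, and both pairs of values come from the same 4 arrays.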

How the results depend on the processing

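Under the 11 alternatives other than the thresholds of 1.5-fold and 4-fold, 350 of 368 differences of single genes stayed on the same side of 2-fold. Part of these were fixed in advance. The mean over probes and the dimmest probe cannot move the 9 genes with 1 probe. Changes of the background filter cannot move a difference when both arrays were above background and the filter was dropped or required both. Of the 18 that crossed it, 8 did so without scaling, 5 with housekeeping genes, 4 with normexp and quantile normalization and 1 with the dimmest probe. Sign changed for 5 differences, all within 2-fold: *Stat3* between genotypes after AOM (0.02 with the mean over probes, 0.23 with the dimmest probe), and in *Pla2g3*-/- mice *Il11* with AOM (0.63 without scaling, 0.10 with housekeeping genes) and *Il11ra1* (0.35 without scaling).

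Without scaling the median log2 difference of all genes with AOM moved from -0.17 to 0.87 in *Pla2g3*+/+ and from -0.08 to 0.76 in *Pla2g3*-/- mice, and with housekeeping genes to 0.36 and 0.23. The share of higher genes among those past 2-fold went from 40.3% and 38.9% to 86.3% and 91.1% without scaling, to 69.8% and 67.0% with housekeeping genes and to 51.4% and 51.1% with normexp and quantile normalization.

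Counts of the 10 genes that changed by more than 1.5 times, or to or from 0, moved as follows. Smaller changes of a count are not listed. Such changes came from *Lif* and *Osm* with normexp and quantile normalization, and from *Il6ra* and *Il6st* with AOM in *Pla2g3*+/+ mice without scaling. With AOM in *Pla2g3*-/- mice, 1 higher became 4 without scaling, 3 with housekeeping genes, 2 with the dimmest probe, 4 at 1.5-fold and 0 at 4-fold, and 1 lower became 0 without scaling, 2 with no filter on dim probes and 0 at 4-fold. With AOM in *Pla2g3*+/+ mice, 7 higher became 4 where both arrays had to be above background, and 1 lower became 0 without scaling, with housekeeping genes and at 4-fold. Between genotypes after AOM, 1 higher became 0 without scaling, with housekeeping genes, with normexp and quantile normalization and at 4-fold, and 2 at 1.5-fold, and 6 lower became 3 where both arrays had to be above background. With vehicle, 1 higher became 2 with no filter and 0 at 4-fold. The cause of these changes was not tested beyond what each alternative does by construction. Of 728 counts over the pathway lists, 638 stayed within 1.5 times.

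No paired analysis was possible because each group holds 1 array. Leaving out an array removes its group, so no result rests on a replicate. *Il6*, *Lif* and *Osm* were limited by background on 3 of 4 arrays.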
